A study of Mus musculus with 23 samples.

Results

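The 10 genes described here are Tnf, Il1a, Il1b, Nfkb1, Nfkb2, Relb, Nfkbia, Tnfaip3, Birc3 and Icam1, which belong to the NF-kB pathway and to the inflammatory cytokines that drive it and are made by it. They were taken by symbol from a table of 47643 mouse genes and followed across all 23 libraries by sample type, guide and treatment. B16F10 is a pigmented mouse melanoma line, and RNA-seq was performed on bulk tumors that it formed under the skin of male C57BL/6 mice, on tumor cells sorted from such tumors with magnetic beads by depletion of stromal cells after collagenase digestion, and on the cultured line. Each of these 3 sample types had 2 control libraries (WT), 2 of the NR2F6 KO guide sg492 and 2 of the NR2F6 KO guide sg495, 18 libraries in all. Fluorescently labelled guides were delivered with Cas9 protein and the labelled cells were isolated by flow sorting, and whether clones were derived from them is not given in the sources used here. A further 5 libraries were labelled WT and either IgG control (2) or anti-PD1 (3, an antibody that blocks an inhibitory receptor of T cells), and their labels give no sample type, dose or time. Levels are in TPM, a transcript abundance unit scaled for gene length and for the library total, so levels can be compared between genes. Between libraries TPM compare shares of a fixed total, which also shift with the other transcripts in each library.

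NF-kB is a family of dimeric transcription factors that inhibitory IkB proteins hold in the cytoplasm of resting cells. Receptors for TNF, IL-1 and microbial products activate a kinase complex that marks the IkB protein for destruction, after which p50 (from Nfkb1) and its partners enter the nucleus, while a slower branch through NIK processes Nfkb2 to p52, the partner of RelB. Among the genes that NF-kB switches on are its own inhibitors, the cytokines that activate it, adhesion molecules and survival factors. In tumors these transcripts can come from the melanoma cells or from infiltrating leukocytes, and in a bulk sample fewer cells of a type and less RNA per cell cannot be told apart.

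Nr2f6, the targeted nuclear receptor gene, was measured first. In cultured cells its levels were 31.88 and 32.9 TPM in control, 26.55 and 31.5 with sg492 and 18.55 and 22.43 with sg495. In bulk tumors they were 25.83 and 25.24 in control, 22.31 and 23.31 with sg492 and 17.22 and 15.76 with sg495. In sorted cells they were 20.32 and 17.73 in control, 19.84 and 25.7 in the libraries labelled sg492 and 10.6 and 12.18 with sg495. The sg495 libraries thus lay below both controls in every sample type, whereas the sorted libraries labelled sg492 were not below their controls and their label is not borne out by this transcript. An edit that shifts the reading frame need not lower the transcript. The study checked the knockout in its edited cells by immunoblotting and by sequencing of the targeted sites.

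Markers of other cell types set the sample types apart. The 4 pan-leukocyte markers summed to between 63.5 and 174.11 TPM in the 6 bulk tumors, between 1.38 and 3.49 TPM in sorted cells and between 0.95 and 1.81 TPM in cultured cells. Ptprc (CD45), which defines leukocytes, was between 5.74 and 26.21 TPM in bulk tumors, at most 0.15 TPM in sorted cells and listed at 0 in all 6 cultured libraries. The 7 melanocyte markers, among them the pigment enzyme gene Tyrp1, summed to between 14840 and 17844 TPM in all 18 libraries, so the melanoma label held for each of them. The neutrophil marker Ly6g was listed at 0 in all 23 libraries.

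Binding motifs in the promoters of the members are shown first, because several of these genes are textbook targets of the factor that others among them encode. Promoters (250 bases before to 50 after each start site, RefSeq, build GRCm38.p6) were held for 8 of the 10 members, and both strands were searched for the kappa B consensus and for the STAT motif TTCNNNGAA, whose letters do not overlap with the former in the sites shown. These 8 genes had 11 promoter windows, since some have several start sites. The kappa B consensus was found in 5 of the 11 windows (of Nfkb2, Nfkbia and Tnfaip3), against 8.46% of 32851 promoters in the table, and TTCNNNGAA in 2 windows (Nfkb2 and Icam1), against 8.3%. Overlapping windows of Nfkb2 shared a match. Each match below is given on the strand of the gene with its flanks in lower case and the motif in capitals. Those of Nfkb2 at chr19:46304689-46304717 and chr19:46304716-46304745 (plus strand) begin 39 and 11 bases before a start site, and overlapping matches are capitalised as 1 run. That of Nfkbia at chr12:55492657-55492686 (minus strand) begins 29 bases before the start, those of Tnfaip3 at chr10:19015516-19015545 and chr10:19015403-19015432 (minus strand) begin 125 and 12 bases before it, and the STAT motif of Icam1 at chr9:21015888-21015916 (plus strand) begins 42 bases before it.
Nfkb2, first kappa B match: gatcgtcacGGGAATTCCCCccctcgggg
Nfkb2, next kappa B match: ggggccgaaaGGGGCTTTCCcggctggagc
Nfkbia, kappa B match: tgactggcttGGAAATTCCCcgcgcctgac
Tnfaip3, distal kappa B match: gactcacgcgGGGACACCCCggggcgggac
Tnfaip3, proximal kappa B match: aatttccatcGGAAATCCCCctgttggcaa
Icam1, STAT motif: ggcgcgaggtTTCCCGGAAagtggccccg
A match is a description of the letters and not a measured binding site, and a promoter without one lacks only these letters in this window.

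The cytokines were nearly confined to the bulk tumors among the 18 libraries. Tnf (chr17:35199381-35202007, minus strand), which encodes the ligand of the TNF receptors, was at 0.97 and 0.84 TPM in control bulk tumors, 1.79 and 2.43 with sg492 and 2.01 and 3.48 with sg495. It did not exceed 0.48 TPM in any sorted library or 0.16 TPM in any cultured library. Il1b (chr2:129364570-129371139, minus strand), the secreted ligand of the IL-1 receptor, was at 4.95 and 2.77 TPM in control bulk tumors, 2.53 and 12.32 with sg492 and 3.66 and 3.99 with sg495. A single sg492 tumor thus stood above the other 5, and all 6 tumors lay above the highest sorted library (1.16 TPM) and the highest cultured library (0.63 TPM). Il1b was listed at 0 in 5 of 6 cultured libraries. Il1a (chr2:129299610-129309972, minus strand), which encodes the cell-associated form of IL-1, was between 0.22 and 1.27 TPM in bulk tumors, at most 0.2 TPM in sorted cells and at most 0.03 TPM in cultured cells, and the same sg492 tumor was highest. Bulk tumors did not overlap with sorted cells for any of the 3 cytokines, while sorted and cultured cells did overlap.

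**Figure D1:**
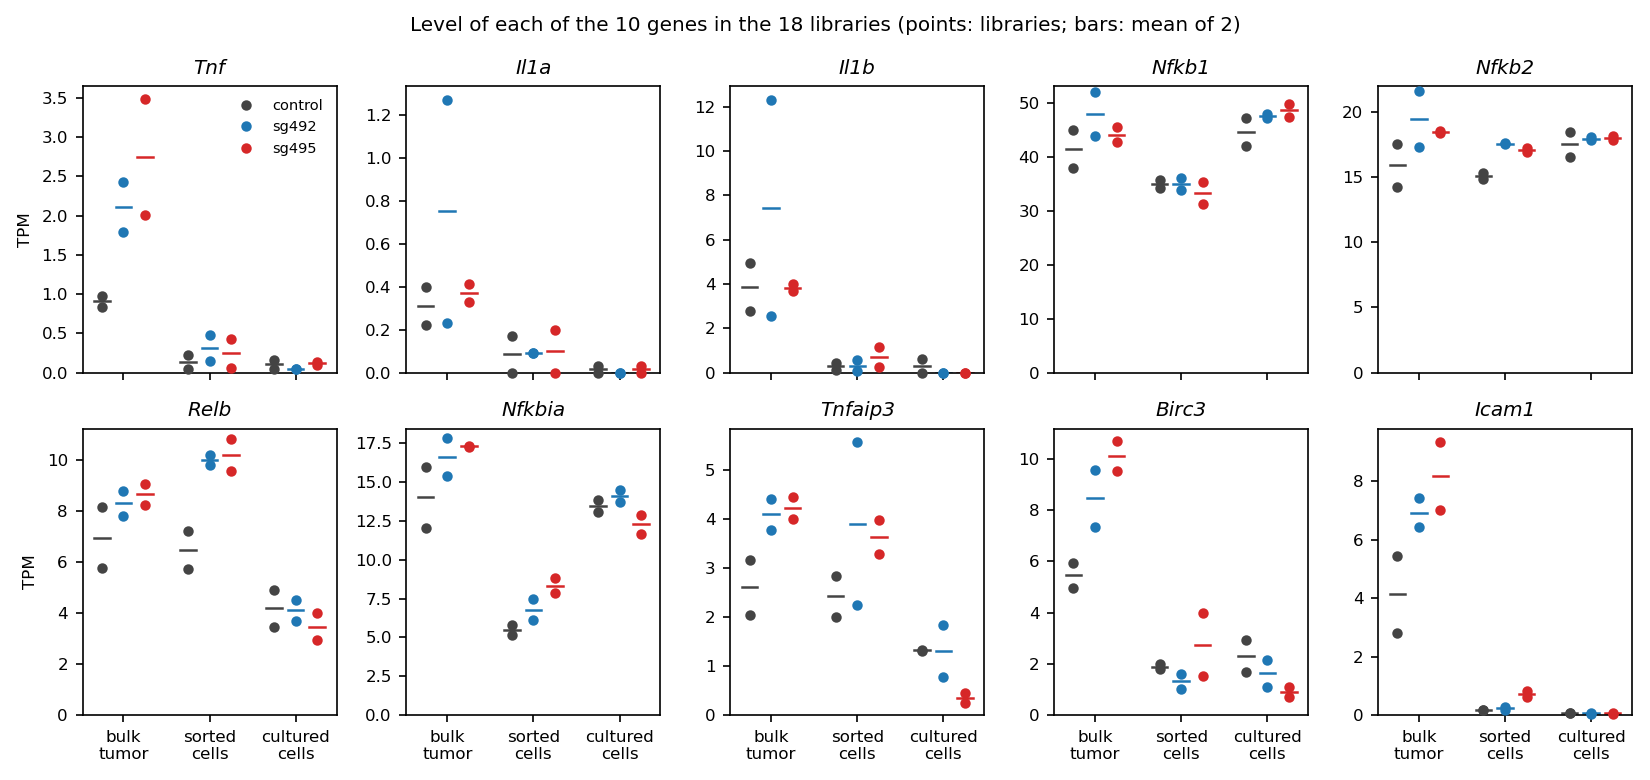
TPM (vertical axis, linear from 0) of the 10 genes in 18 libraries by sample type (horizontal axis) and guide (color), with 1 point per library and a bar at the mean of 2. Tnf, Il1a, Il1b, Birc3 and Icam1 were high only in bulk tumors among these sample types, Nfkb1 was lowest in sorted cells, the sample types overlapped for Nfkb2, and Relb was highest in sorted cells, with 10.82 TPM as its maximum.

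The subunit genes were transcribed in each sample type. Nfkb1 (chr3:135584655-135691547, minus strand), the precursor of p50, was the most abundant member in all 18 libraries. Its levels were 45.06 and 38.03 TPM in control bulk tumors, 34.32 and 35.74 in control sorted cells and 47.14 and 42.12 in control cultured cells. Over the guides it ranged from 38.03 to 52.13 TPM in bulk tumors, from 31.33 to 36.1 in sorted cells and from 42.12 to 49.92 in cultured cells, so that sorted cells lay below the others without overlap. Nfkb2 (chr19:46304320-46312385, plus strand), the precursor of p52, stayed between 14.23 and 21.61 TPM across the 18 libraries and its sample types overlapped. Relb (chr7:19606217-19629438, minus strand), the p52 partner, was at 7.22 and 5.71 TPM in control sorted cells, 9.77 and 10.17 in the sorted libraries labelled sg492 and 9.56 and 10.82 with sg495. In cultured cells it ranged from 2.94 to 4.89 TPM, below every sorted and every bulk library, and bulk tumors, between 5.74 and 9.05 TPM, overlapped with sorted cells.

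The feedback inhibitors differed from each other in their order over sample types. Nfkbia (chr12:55489410-55492647, minus strand) encodes IkB alpha, which is resynthesised after activation and withdraws NF-kB from the nucleus. It was at 15.99 and 12.03 TPM in control bulk tumors, 5.13 and 5.78 in control sorted cells and 13.82 and 13.09 in control cultured cells. Every sorted library (5.13 to 8.8 TPM) was below every bulk and every cultured library. Tnfaip3 (chr10:19000910-19015657, minus strand) encodes A20, a ubiquitin-editing enzyme that shuts off signaling from the TNF receptor. It was at 3.17 and 2.05 TPM in control bulk tumors, 2.01 and 2.84 in control sorted cells and 1.31 and 1.33 in control cultured cells. Sorted cells (2.01 to 5.59 TPM) did not overlap with cultured cells (0.24 to 1.84 TPM) but overlapped with bulk tumors.

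Of the other target genes, Birc3 (chr9:7848699-7873186, minus strand) encodes a ubiquitin ligase of the TNF receptor complex that protects from cell death. It was at 5.94 and 4.95 TPM in control bulk tumors, 7.32 and 9.58 with sg492 and 10.68 and 9.53 with sg495. Its range was 1.03 to 3.98 TPM in sorted cells and 0.69 to 2.94 TPM in cultured cells, so bulk tumors stood apart and the remaining types overlapped. Icam1 (chr9:21015985-21028817, plus strand) encodes the adhesion molecule that leukocyte integrins bind. It was at 5.45 and 2.82 TPM in control bulk tumors, 6.42 and 7.42 with sg492 and 7.03 and 9.34 with sg495, between 0.17 and 0.83 TPM in sorted cells and at most 0.08 TPM in cultured cells. The 3 sample types did not overlap for Icam1.

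To ask which of these differences between sample types exceeded the spread between libraries, log2(TPM + 1) was fitted with limma over the 18 libraries, and a call required an adjusted value under 0.05 (Benjamini-Hochberg over all tested genes) together with a change of at least 1.5-fold. The log2 differences are on that scale, which understates the change of low genes. Of the 10 members, 8 reached a mean of 1 TPM and were tested, and Tnf and Il1a were not. Il1b and Icam1 passed this filter only through the bulk tumors, so that their difference from sorted cells followed in part from the filter and is given as a value alone (1.96 for Il1b and 2.39 for Icam1). In bulk tumors against sorted cells, 9.26% of 13152 genes were called higher and 4.31% lower, and of the 6 other members Birc3 and Nfkbia were called higher. Birc3 was higher by 1.61 ± 0.18 (SE, adjusted p = 8.86e-06) and Nfkbia by 1.12 ± 0.08 (adjusted p = 1.03e-07). Nfkb1 was higher by 0.36 (adjusted p = 0.000236), less than the fold threshold, and Nfkb2, Relb and Tnfaip3 did not pass (95% intervals of -0.03 to 0.24, -0.36 to 0.11 and -0.26 to 0.51). Under a filter of 5 TPM, which Icam1, Il1b, Birc3 and Tnfaip3 did not pass, Nfkbia was the 1 member called. Most markers of other cell types also passed the filter only through the bulk tumors and are given as levels. The macrophage markers summed to between 473.39 and 1015 TPM in bulk tumors and between 4.4 and 13.46 TPM in sorted cells, the endothelial markers to between 49.57 and 62.02 and between 0.15 and 0.98 TPM, and the fibroblast markers to between 333.69 and 947.8 and between 1.19 and 4.23 TPM. The part of these markers, and of the leukocyte markers given above, in the result was not tested.

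In sorted against cultured cells, where 14.6% of 13152 genes were called higher and 8.99% lower, Tnfaip3 and Relb were higher and Nfkbia was lower. Tnfaip3 rose by 1.12 ± 0.18 (limma, adjusted p = 0.000104) and Relb by 0.99 ± 0.11 (adjusted p = 3.71e-06), while Nfkbia fell by 0.88 ± 0.08 (adjusted p = 6.04e-07). Ptprc was at or near 0 in both sample types, but the macrophage marker Cd68 was at 3.62 to 12.09 TPM in sorted and 1.11 to 3.05 TPM in cultured cells (1.38, adjusted p = 8.46e-07) and the B cell marker Cd79a at 2.26 to 4.16 and 0.19 to 1.03 TPM (1.25, adjusted p = 3.44e-06). The macrophage marker Lyz2 went the other way (-0.87, adjusted p = 1.61e-06). The part of these markers in the result was not tested. Nfkb1 was lower by 0.43 (adjusted p = 2.42e-05) and Icam1 higher by 0.34 (adjusted p = 0.0346), both under the fold threshold, and Il1b, Birc3 and Nfkb2 did not pass. With a pseudocount of 0.1 in place of 1, Icam1 (1.33, adjusted p = 0.000176) and Il1b (1.58, adjusted p = 0.0317) were called higher as well. Both had passed the filter only through the bulk tumors and were low here. Icam1 was at most 0.83 TPM in sorted and 0.08 in cultured cells. Il1b was at most 1.16 and 0.63 TPM, and was listed at 0 in 5 of 6 cultured libraries. These 2 calls thus depended on the pseudocount. In the control libraries alone the Relb difference was 0.54 (adjusted p = 0.0339) and that of Tnfaip3 0.55 (adjusted p = 0.170), so neither call held without the guide libraries, whereas that of Nfkbia did. When the sorted libraries labelled sg492 and the other sg492 libraries were left out, an alternative chosen after the data were seen, Birc3 and Nfkbia were still called in the first comparison and Relb, Tnfaip3 and Nfkbia in the second. Sorting entailed an hour-long enzymatic digestion that the cultured cells did not undergo, and its effect cannot be told apart from that of growth in the mouse.

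**Figure D2:**
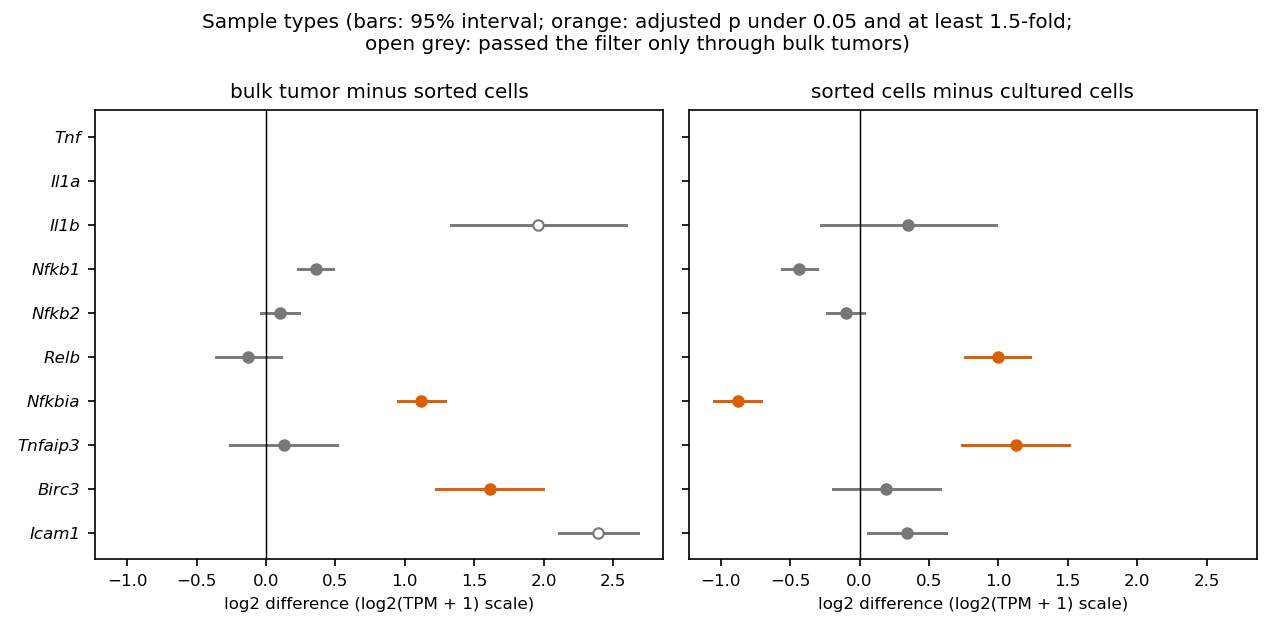
Log2 difference (horizontal axis, log2(TPM + 1) scale) between sample types for each tested member (vertical axis), with 95% intervals from limma over 18 libraries. Called members are in orange (open grey circles are Icam1 and Il1b, which passed the filter only through the bulk tumors): Birc3 and Nfkbia were higher in bulk tumors than in sorted cells, whereas Relb and Tnfaip3 were higher and Nfkbia lower in sorted than in cultured cells.

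The rest of the pathway was examined in 43 further genes and 20 further targets. Several of them reached the filter of 1 TPM only through the bulk tumors, so that a higher level there followed from the filter, and these are given as values: Bcl3 (2.37), Traf1 (2.26), the IL-1 receptor antagonist gene Il1rn (3.89), the TNF receptor Tnfrsf1b (2.98), Cd40 (2.29), Tlr2 (2.01), Cxcl5 (2.0), Bcl2a1b (3.98), Bcl2a1d (3.21) and the adhesion gene Vcam1 (3.01). Of the genes that passed it without the bulk tumors, 1 of 5 subunit and IkB genes was called higher in bulk tumors than in sorted cells, the inhibitor Nfkbie by 0.72. Rela, the main transactivating subunit, was not called, with levels between 20.38 and 28.65 TPM over these 12 libraries. Of 17 such kinases and adaptors 2 were higher, the IL-1 and Toll-like receptor adaptor Myd88 by 1.23 and Ripk1 by 0.66, and none of 4 receptors and decoys was called. Of 7 such targets 2 were higher, Plau by 1.78 and Csf1 by 1.32, and 1, the stress gene Gadd45b, was lower (-0.96). None of 4 tested other inhibitors was called in that comparison, where Tnip1 and Otulin differed most (0.14 each). These counts stand beside 9.26% of all genes called higher and 4.31% lower, and with so few genes a list they are no result about the lists. Bcl2a1b and Bcl2a1d are near-identical copies, and reads shared between them make each value uncertain.

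In sorted against cultured cells Map3k14, which encodes NIK, was higher by 1.05 and Ltbr, the lymphotoxin beta receptor upstream of it, by 1.31. Ltbr was between 26.27 and 30.19 TPM in cultured cells and between 65.99 and 75.38 TPM in sorted cells, without overlap. Traf5 (0.73), Birc2 (0.76), Nfkbiz (0.76), Plau (1.93) and Gadd45b (1.00) were also higher, and Ripk1 (-0.72) and Ier3 (-1.14) were lower. In all, 1 of 6 subunit and IkB genes, 3 of 18 kinases and adaptors, 1 of 8 receptors, 0 of 4 other inhibitors and 2 of 11 targets were called higher, and 1 kinase or adaptor and 1 target lower, beside 14.6% and 8.99% of all genes, and shares so near to these are no result about the lists. The genes counted include those that passed the filter only through the bulk tumors, which the counts for bulk against sorted cells left out. The largest differences in the receptor and inhibitor lists that were not called were Tlr4 (0.52) and Tnip2 (0.49).

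The guide comparisons ask what loss of NR2F6 in the tumor cells did to these genes. With 2 libraries against 2 an exact permutation test cannot go below p = 0.333, so the p-values are those of limma, fitted across all genes and 6 libraries of a sample type. The labels do not state that replicates came from separate animals or cultures, and these p-values measure the spread between libraries, which may be technical. In bulk tumors 9 members were tested (Il1a was under 1 TPM) and none was called with either guide. Of 13639 genes 0% were called with sg492 and 0.0293% with sg495. Tnf had a mean under 1 TPM in control tumors (0.905) and passed the filter only through the guide tumors, so that its positive difference followed in part from the filter. Of the 8 others, 3 were at an unadjusted p below 0.05 with each guide (Tnfaip3, Birc3 and Icam1 for both), against 8.3% of all genes with sg492 and 15.65% with sg495.

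The log2 differences of the 8 members at 1 TPM or more in control tumors were above 0 with each guide, with a median of 0.39 with sg492 and 0.30 with sg495 against 0.06 over all genes for both. Both guides were compared with the same 2 control tumors. Both libraries of the guide lay above both controls for 3 of these 8 members with sg492 (31.1% of all genes did) and for 6 with sg495 (31.6% of all genes did), and for none did both lie below (11.3% and 14.3% of all genes did). Tnf, given as a value for the reason above, differed by 0.95 with sg495 and by 0.70 with sg492. Birc3 differed by 0.79 ± 0.17 with sg495 (SE, adjusted p = 0.109) and Icam1 by 0.88 ± 0.27 (adjusted p = 0.200). Il1b, with 0.53 ± 0.59 for sg492 and 0.03 ± 0.59 for sg495, rested on 1 tumor: without it the sg492 value was -0.42, and the sg495 value turned to -0.03 under another scaling. Fitted with all 18 libraries, the sg495 comparison called 395 genes and 1 member, Icam1 (0.88, adjusted p = 0.0440).

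**Figure D3:**
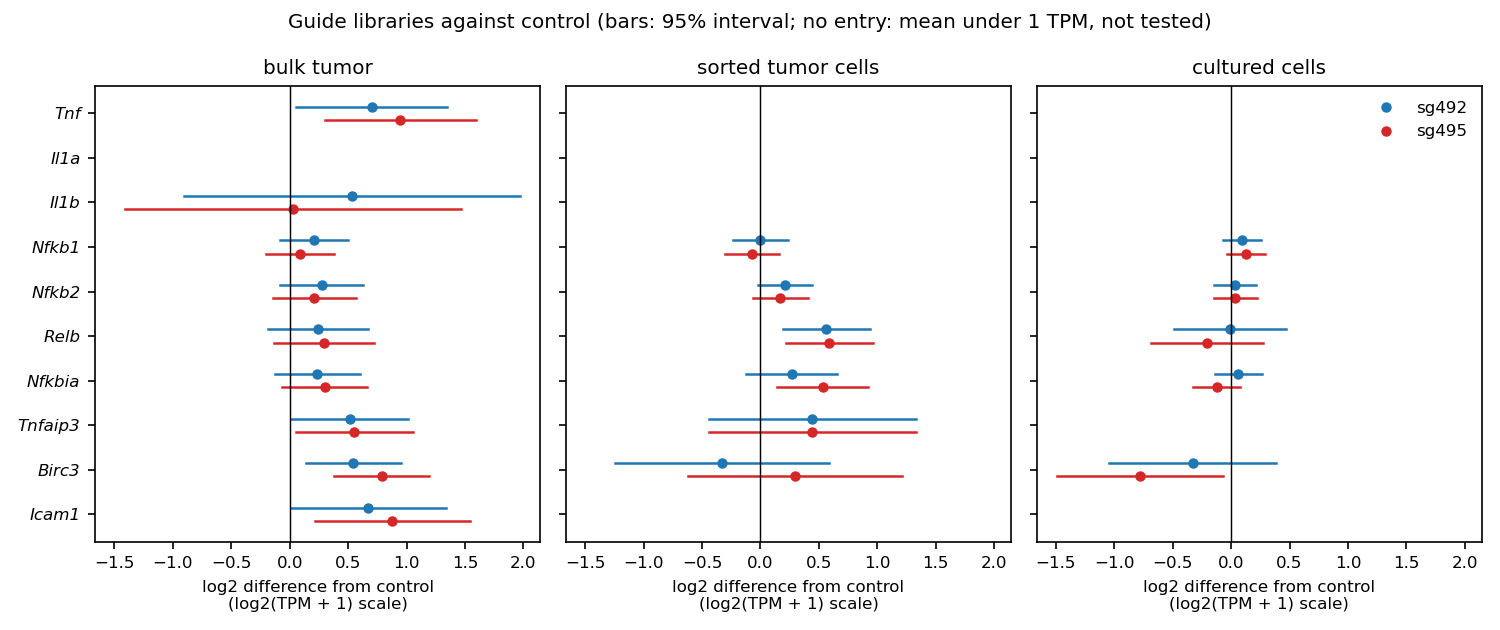
Log2 difference from control (horizontal axis, log2(TPM + 1) scale) for each member (vertical axis) with sg492 (blue) and sg495 (red) in 3 sample types, with 95% intervals from limma. In bulk tumors all 9 tested members, among them Tnf, which passed the filter only through the guide tumors, lay to the right of 0 with both guides, in cultured cells Birc3 lay to the left, and none of them was called.

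Markers of some other cell types were also at higher levels in the guide tumors, although none of the tested markers was called with either guide. Ptprc was at 9.29 and 5.74 TPM in control tumors, 13.79 and 15.98 with sg492 and 18.16 and 26.21 with sg495, and the 4 pan-leukocyte markers, led by Laptm5, summed to 84.73 and 63.5, 112.51 and 123.9, and 135.35 and 174.11 TPM in the same order. The 10 macrophage markers, led by Lyz2, summed to 655.7 and 473.39 TPM in control, 703.06 and 868.57 with sg492 and 952.91 and 1015 with sg495. The fibroblast markers, led by Col3a1, summed to 396.66 and 333.69 TPM in control, 452.42 and 542.18 with sg492 and 543.1 and 947.8 with sg495, and the NK cell markers to 5.34 and 4.22, 8.48 and 7.4, and 16.52 and 21.64 TPM. The dendritic cell markers, among them Zbtb46, summed to 6.67 and 5.54, 10.07 and 8.97, and 11.64 and 12.3 TPM, and the endothelial markers, led by Pecam1, to 55.98 and 49.57, 60.86 and 59.19, and 59.1 and 62.02 TPM, in each case without overlap between control and guide tumors. The keratinocyte markers, among them Krt14, summed to 0.03 and 2.98 TPM in control, 8.4 and 6.56 with sg492 and 0.83 and 0.07 with sg495. The neutrophil and B cell markers overlapped between control and guide tumors: the neutrophil markers summed to 15.07 and 4.94 TPM in control, 9.62 and 18.22 with sg492 and 8.89 and 9.38 with sg495, and the B cell markers to 3.6 and 2.38, 2.81 and 2.86, and 2.01 and 2.95 TPM. The T cell markers were at 14.28 and 5.46 TPM in control and 10.5 and 11.3 with sg492, which overlapped, and at 15.32 and 23.23 with sg495. The part of these markers in the members' values was not tested.

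Set against Ptprc, no member was higher in the guide tumors as a group. For 7 members (Nfkb1, Nfkb2, Relb, Nfkbia, Tnfaip3, Birc3 and Icam1) the ratio in all 4 guide tumors was below that in both controls, and for Tnf, Il1a and Il1b the groups overlapped. The ratio of Tnf was 0.104 and 0.146 in control, 0.13 and 0.152 with sg492 and 0.111 and 0.133 with sg495. That of Icam1 was 0.587 and 0.491 in control, 0.466 and 0.464 with sg492 and 0.387 and 0.356 with sg495. That of Tnfaip3 was 0.341 and 0.357 in control, 0.275 and 0.276 with sg492 and 0.221 and 0.17 with sg495. Ptprc itself was higher in all 4 guide tumors than in both controls, so a gene that did not differ has a lower ratio there. The share of all genes with such a ratio was not computed, so the count of 7 is no result about the members. In sorted cells, where Ptprc was at most 0.15 TPM, Tnf and Icam1 remained under 1 TPM in every library.

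In sorted tumor cells 6 members were tested and none was called. Called genes were 0.0388% of 12899 with sg492 and 0.899% with sg495. Relb was at 7.22 and 5.71 TPM in control and above both of these in all 4 guide libraries, with a difference of 0.59 ± 0.15 for sg495 (limma, unadjusted p = 0.00794, adjusted p = 0.162) and 0.56 ± 0.15 for the libraries labelled sg492 (adjusted p = 0.603). Nfkbia was at 5.13 and 5.78 TPM in control and 7.87 and 8.8 with sg495, a difference of 0.53 ± 0.16 (adjusted p = 0.207). Both sg495 libraries lay above both controls for 4 of the 6 (Nfkb2, Relb, Nfkbia and Tnfaip3), as for 17.9% of all genes, and below them for none (31.5% of all genes). In the libraries labelled sg492 this held for 3 (20.4% of all genes) and Birc3 lay below (20% of all genes). Since these libraries had no lower Nr2f6 than control, the Relb difference in them was not accompanied by a lower level of the targeted transcript. The 4 members under the filter were low: Icam1 was at 0.61 and 0.83 TPM with sg495 and at 0.17 and 0.18 in control, and Tnf, Il1a and Il1b overlapped between the groups. The pan-leukocyte markers summed to 1.88 and 1.38 TPM in control, 3.49 and 3.09 in the libraries labelled sg492 and 2.45 and 2.57 with sg495. Macrophage markers summed to 5.73 and 4.4, 5.71 and 6.21, and 8.39 and 13.46 TPM in the same order. The mitochondrial share was 8.02% of TPM in sg495 replicate 1 and 3.45% to 4.73% in the other sorted libraries. The part of these markers and of that share in the members' values was not tested.

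In cultured cells 5 members were tested and none was called. Called genes were 0.05% of 12007 with sg492 and 2.76% with sg495. Birc3 was at 2.94 and 1.66 TPM in control, 1.11 and 2.14 with sg492 and 0.69 and 1.1 with sg495, a difference of -0.78 ± 0.29 for sg495 (limma, unadjusted p = 0.0362, adjusted p = 0.149). Tnfaip3, whose mean was under the filter, was at 1.31 and 1.33 TPM in control, 1.84 and 0.78 with sg492 and 0.24 and 0.46 with sg495. Both sg495 libraries thus lay below both controls for these genes and also for Nfkbia (12.9 and 11.65 against 13.82 and 13.09 TPM), and of the tested members 2 did so against 28.9% of all genes. Nfkb1 was the only tested member above both controls with both guides (27.2% of all genes with sg492, 27.5% with sg495), by 0.09 and 0.12. No tested member lay below both controls with sg492 (14.3% of all genes did), and Relb and Nfkb2 overlapped with control for both guides.

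Genes of the pathway lists outside the members passed the test in cultured cells with sg495. Ier3, an immediate early response gene, fell from 278.63 and 286.14 TPM in control to 107.99 and 101.01 with sg495, by 1.43 on the log2 scale (limma, adjusted p = 0.00036). With sg492 it was at 234.35 and 225.14 TPM. Nfkbiz, which encodes the nuclear IkB protein IkB zeta, fell from 5.68 and 5.26 to 2.94 and 3.11 TPM, by 0.68 (adjusted p = 0.0209). In all 1 of 5 subunit and IkB genes and 1 of 7 targets were called lower, and none of 17 kinases and adaptors, 4 receptors and 4 other inhibitors, where Tradd (-0.52, adjusted p = 0.0417), Il1rap (0.54, adjusted p = 0.02) and Cyld (-0.30) differed most. The macrophage marker Lyz2, which passed the filter only through the guide libraries, was at 0.79 and 0.92 TPM in control, 1.75 and 1.42 with sg492 and 3.07 and 2.23 with sg495, and its part in these results was not tested. With sg492 no gene of these lists was called in any sample type, and with sg495 none was called in bulk tumors, where Ltb (1.23), Vcam1 (0.96) and Tnfrsf1b (0.92) differed most, or in sorted cells, where Csf1 (1.06), Plau (0.97) and Nfkbiz (0.74) did. Ltb was at 1.17 and 0.25 TPM in control tumors and 2.76 and 2.98 with sg495. It passed the filter only through the guide tumors, so its positive difference followed in part from the filter.

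Whether the sg495 difference itself changed with the sample type was tested as an interaction over 18 libraries, again with shared controls. For bulk tumors minus cultured cells 1.6% of 13152 genes were called higher and 0.16% lower, and none of 8 members was called. The interaction was 1.57 ± 0.43 for Birc3 (limma, adjusted p = 0.0866) and 1.34 ± 0.43 for Tnfaip3 (adjusted p = 0.138). That of Icam1, which passed the filter only through the bulk tumors, is given as a value alone (0.90). For sorted minus cultured cells, where 1.86% were called higher and 0.646% lower, it was 0.66 ± 0.19 for Nfkbia (adjusted p = 0.0797), 0.80 ± 0.26 for Relb (adjusted p = 0.121) and 1.23 ± 0.43 for Tnfaip3 (adjusted p = 0.146). Ier3 was called in both (1.83, adjusted p = 0.0118, and 1.73, adjusted p = 0.00809), and Nfkbiz for sorted minus cultured cells (1.42, adjusted p = 0.0426). Of the markers, Coro1a of the pan-leukocyte list was called higher for bulk tumors minus cultured cells (1.64, adjusted p = 0.0307). Ptprc (1.46), the macrophage marker Adgre1 (1.31) and the NK cell marker Gzma (1.63) passed the filter only through the bulk tumors and were listed at 0 in every cultured library, so these are given as values alone.

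The libraries labelled IgG and anti-PD1 held the highest levels of every member. Il1b was at 198.62 and 372.83 TPM with IgG and 95.53, 251.74 and 364.14 with anti-PD1. Tnf was at 36.1 and 53.28 TPM with IgG and 8.99, 21.15 and 34.69 with anti-PD1. Nfkbia was at 142.18 and 221.49 TPM with IgG and 63.04, 138.62 and 129.91 with anti-PD1. The treatments overlapped for Il1b but not for Tnf, and anti-PD1 replicate 1 was the lowest of the 5 libraries for each of these genes. That library also had the lowest Ptprc (86.68 TPM, against 162 to 272.52 in the others) and the highest share of mitochondrial transcripts (21.9% of TPM, against 8.63% to 16.6%).

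Against IgG, all 10 members were tested and all 10 were lower with anti-PD1 in value, with a median of -0.39 against -0.04 over 13418 genes, but none was called, and 0% of all genes were. With the replicate number as a block, 514 genes and 1 member, Tnf (-1.59, adjusted p = 0.00126), were called, although nothing shows that the numbers pair these libraries. Tnf differed by -1.17 ± 0.51 (limma, adjusted p = 0.608), Relb by -0.90 ± 0.38 (adjusted p = 0.608), Nfkbia by -0.76 ± 0.38 and Tnfaip3 by -0.74 ± 0.39 (adjusted p = 0.608 each). At an unadjusted p below 0.05 was 1 member, Relb, and 964 of all genes. Without anti-PD1 replicate 1 the values of Il1b (0.15), Il1a (0.05) and Icam1 (0.01) turned to above 0. No gene of the pathway or target lists was called, the most different being Nfkbid (-1.04), Il1rn (-1.02), Traf1 (-0.89), Bcl3 (-0.85) and Il6 (-0.85), and the medians were -0.45 for the 4 pan-leukocyte markers, -0.44 for 10 macrophage, -1.40 for 6 T cell and 0.85 for 7 melanocyte markers, the last all above 0.

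Set beside the 6 bulk tumors, these 5 libraries lay above all of them for all 10 members, as did 13.5% of 13892 genes, whereas 44% of genes lay below. The ratio of mean TPM was 50.9 for Il1b, 17.3 for Il1a, 16.1 for Tnf, 10.7 for Tnfaip3, 9.14 for Icam1, 8.71 for Nfkbia, 6.02 for Birc3, 3.12 for Relb, 2.45 for Nfkb2 and 1.93 for Nfkb1. No test was made, since the sample type, handling and treatment of these libraries cannot be told apart. Markers of some leukocytes were higher as well, 4 of 4 pan-leukocyte and 10 of 10 macrophage markers lying above all bulk tumors, with Lyz2 between 3762 and 5441 TPM, and 7 of 7 melanocyte markers lay below. Of the other leukocyte lists, 3 of 6 neutrophil, 4 of 5 dendritic cell, 1 of 4 NK cell, 1 of 4 B cell and 0 of 6 T cell markers lay above. Of the fibroblast markers 5 of 6 and of the endothelial markers 3 of 5 lay below all bulk tumors. The mitochondrial share of TPM was also higher without overlap, at 8.63% to 21.9% against 4.73% to 6.70% in bulk tumors. The part of these markers and of the mitochondrial share in the members' values was not tested. Divided by Ptprc, Il1b was between 1.1 and 1.5 in these libraries and between 0.152 and 0.771 in bulk tumors. For Tnf the same ratio overlapped (0.104 to 0.223 against 0.104 to 0.152), and for Nfkb1 it was lower (0.389 to 0.654 against 1.74 to 6.63). The macrophage marker Itgam had a ratio of 0.992 to 2.03 against 0.726 to 1, and Lyz2 one of 17 to 43.4 against 16.9 to 39.4. What sets these ratios was not tested.

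**Figure D4:**
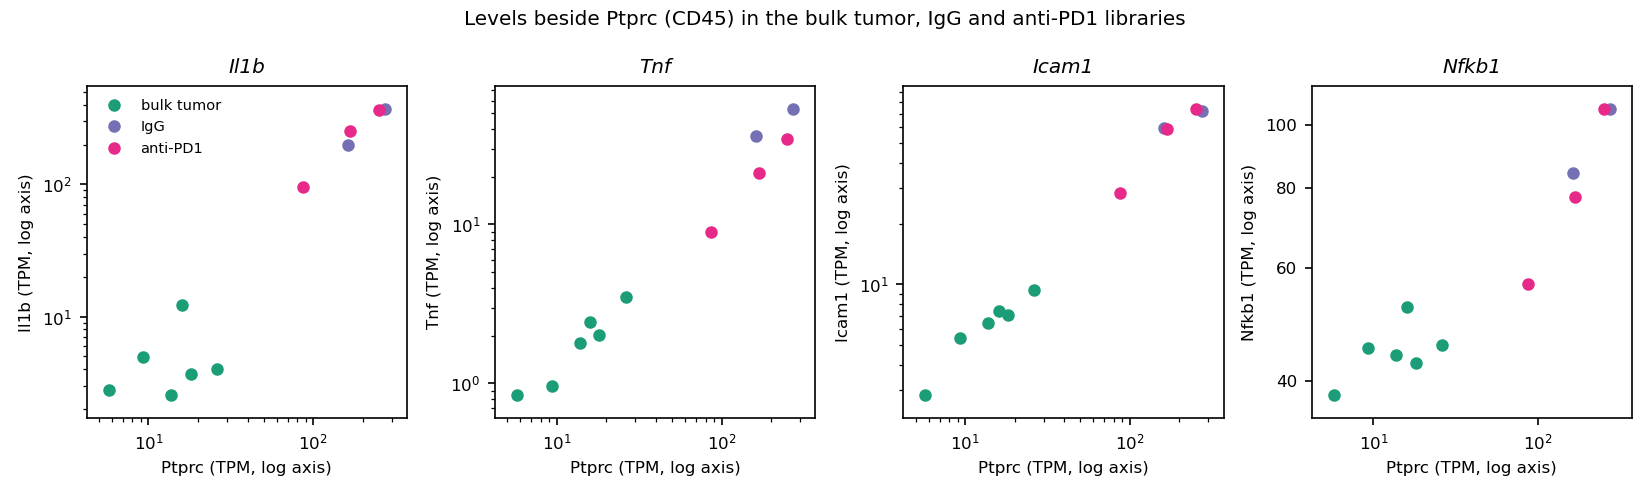
TPM of Il1b, Tnf, Icam1 and Nfkb1 (vertical axes, log) against TPM of Ptprc (horizontal axes, log), with 1 point per library of bulk tumor (green), IgG (purple) and anti-PD1 (pink). The 5 IgG and anti-PD1 libraries lay above the 6 bulk tumors on both axes, and the bulk tumor with the highest Il1b (12.32 TPM) was not the one with the highest Ptprc.

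The genes whose log2(TPM + 1) most resembled each member over the 18 libraries, by Pearson's r among 13152 genes, were taken as a description. For Icam1 they were Irf8 (r = 0.997), Ifi204 (0.995) and Trim30d (0.994), and for Il1b they were Cxcl5 (0.973), Il1rn (0.963) and Thbd (0.963). Birc3 was most like Gpr35 (0.976), Relb like Alpk1 (0.955) and Cflar (0.952), and Tnfaip3 like Bcl2l2 (0.937). Nfkbia was most like Max (0.953), Nfkb1 like Dnajc13 (0.946) and Nfkb2 like Bach1 (0.878). Among the members, Tnf and Icam1 (0.949), Birc3 and Icam1 (0.94) and Il1b and Icam1 (0.927) were closest, Relb and Tnfaip3 reached 0.872, and Nfkb1 and Relb ran opposite (-0.534). The 18 points fall into 3 sample types and are the same libraries for every gene.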

How the data were processed

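RNA was sequenced as poly(A)-selected directional libraries, and the authors' processing, per the submitters' notes and methods, used cutadapt 2.3 for adapters, STAR 2.7.0d for alignment (mm10) and RSEM 1.3.1 for gene abundance. They deposited 1 table of TPM for 47643 genes and 23 libraries. The study tested RSEM's estimated counts with DESeq2 (Wald test), and those counts were not used here. The labels give a range of 23000000 to 31000000 reads for the libraries. TPM do not show the depth of each one, and no counting interval is given. Replicates correlated at r between 0.966 and 0.987 across genes within the 3 sample types, 0.877 for IgG and 0.919 to 0.957 for anti-PD1.

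For each comparison a linear model of log2(TPM + 1) was made in limma 3.58.1 (R 4.3.3, empirical Bayes with a mean trend), after a filter of at least 1 TPM on average over the fitted libraries. Guide comparisons used the 6 libraries of a sample type, treatment the 5 labelled IgG or anti-PD1, and sample types and interactions the 18 others. The test differed from that of the study because the unit did. Calls needed an adjusted p below 0.05 and at least 1.5-fold. The fits were tested on simulated data. Named were the 10 members, Nr2f6, the 3 genes most like each member, called genes of the lists and the most different of each list (up to 2), and the most abundant or defining markers. Members and lists were chosen with earlier results of these data known. Coordinates of genes are those of GENCODE M21 on GRCm38, matched by Ensembl identifier, and promoters those of RefSeq. Alternatives were a pseudocount of 0.1, no filter or a mean of 5 TPM, median-of-ratios scaling, no trend, no fold threshold, a replicate block, each library left out, a fit of all 18 libraries and control libraries alone. Figures were drawn with matplotlib 3.10.9.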

Additional observations from a re-analysis of the deposited data

Results flagged for a closer look

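The sg495 difference from control lay on opposite sides in bulk tumors and cultured cells in every library for Birc3 (interaction of 1.57), Tnfaip3 (1.34) and Nfkbia (0.42), and in sorted and cultured cells for Tnfaip3 (1.23) and Nfkbia (0.66). These interactions were tested with limma and none was called, with adjusted p-values from 0.0797 to 0.312. With sg495, both libraries lay above both controls for 31.6% of all genes in bulk tumors and 17.9% in sorted cells. In cultured cells both lay below for 28.9%. The share of all genes on opposite sides was not computed, so this pattern is no result about the members.

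For Birc3 both bulk sg492 libraries lay above (31.1% of all genes) and both sorted libraries labelled sg492 lay below their controls (20% of all genes), with a difference of 0.87 between the log2 effects of the group means, which was not tested. Ier3 passed the test of the interaction for bulk tumors minus cultured cells (1.83) and for sorted minus cultured cells (1.73), and Nfkbiz for sorted minus cultured cells (1.42). No group had enough libraries to look for outliers.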

How the results depend on the processing

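No member was called in the 6 guide comparisons under the alternatives that kept the 6-library fits. The fit of all 18 libraries moved genes called from 4 to 395 for bulk sg495 (1 member), 5 to 14 for sorted sg492, 116 to 399 for sorted sg495 and 6 to 2 for cultured sg492. A pseudocount of 0.1 gave 1 gene for bulk sg492 and 5 members for sorted against cultured cells, among them Icam1 and Il1b, which were low in both sample types. Without a filter the counts were 0 (bulk sg495), 0 (sorted sg492), 3 (sorted sg495), 219 (cultured sg495) and 211 (sorted minus cultured). At 5 TPM they were 2 for bulk sg495 and 983 with 1 member for bulk against sorted. Without a trend they were 0 and 53 for sorted sg492 and sg495 and 1 for cultured sg492. Without a fold threshold they were 1442 (cultured sg495), 6563 (bulk against sorted), 8750 with 5 members (sorted against cultured) and 518 (sorted minus cultured). Within a sample type, and between IgG and anti-PD1, same-numbered libraries did not deviate together (r between -0.126 and 0.085). Nothing there shows that numbers pair samples, but a weak pairing or one between sample types could not be seen by it. The replicate block gave 0 for bulk sg495, sorted sg492 and cultured sg492, 87 for bulk minus cultured, and 514 with 1 member (Tnf, -1.59, adjusted p = 0.00126) for anti-PD1. With the numbers of bulk sg492 exchanged, a choice made after the data were seen, the block gave 0 for bulk sg492 and sg495. Controls alone left 1 member for sorted against cultured and reversed Relb in bulk against sorted (0.079), and Il1b (-0.0127) and Birc3 (-0.17) in sorted against cultured. Another scaling reversed Il1b for bulk sg495 (-0.0253).

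Leaving out 1 library moved genes called to between 0 and 60 (bulk sg492), 0 and 176 (bulk sg495), 0 and 3 (sorted sg492), 0 and 42 (sorted sg495), 0 and 1 (cultured sg492), 160 and 197 (cultured sg495), 0 and 113 (anti-PD1), 35 and 424 (bulk minus cultured, members 0 to 1, Icam1) and 138 and 325 (sorted minus cultured). It reversed 22 member values, all within these ranges: Il1b from -0.42 to 1.49, Il1b from -0.30 to 0.36 and Nfkb1 from -0.0295 to 0.21 (bulk sg492, then sg495), Nfkb1 from -0.0432 to 0.0425 and Tnfaip3 from -0.0694 to 0.95 (sorted sg492), Nfkb1 from -0.16 to 0.013 and Birc3 from -0.19 to 0.79 (sorted sg495), Nfkb2 from -0.0387 to 0.11 and Relb from -0.21 to 0.19 (cultured sg492), Nfkb2 from -0.0372 to 0.11 (cultured sg495), Il1a from -0.75 to 0.0533, Il1b from -0.85 to 0.15 and Icam1 from -0.66 to 0.0094 (anti-PD1), Tnfaip3 from -0.0422 to 0.30 (bulk against sorted) and Nfkb1 from -0.15 to 0.09 (bulk minus cultured). The other 507 member values kept their direction and side of the threshold when a library was left out, as did 542 under the other alternatives. The cause of these changes was not tested, beyond fewer libraries or genes. Icam1, named above for bulk minus cultured, passed the filter only through the bulk tumors, so its call there is no result.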

Other observations

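Among the 20 targets outside the members, the chemokine gene Cxcl2 was at 157.9 and 161.11 TPM with IgG and 81.02, 204.46 and 57.67 with anti-PD1, against 0.67 to 4.27 TPM in bulk tumors. Cxcl5, another neutrophil-attracting chemokine gene, went the other way, with at most 0.92 TPM in those 5 libraries and between 1.86 and 8.2 in bulk tumors. Il1r1, which encodes the signaling receptor for IL-1, was likewise lower there (0.02 to 0.72 against 1.98 to 3.75 TPM) and was at most 0.05 TPM in sorted and cultured cells, while its coreceptor Il1rap was present in every library (4.69 to 14.01 TPM). These genes were chosen after their values were seen, and no test was made.

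The bulk sg492 tumor with the highest Il1b (12.32 TPM) also had the highest Il1rn (38.57 TPM, against 11.29 to 17.18 in the other 5 tumors) and Cxcl5 (8.2 TPM). Of the markers it had the highest Cd14 of the macrophage list (22.14 TPM, against 5.57 to 9.35), the highest neutrophil marker Csf3r (5.46 TPM, against 0.97 to 3.99) and the highest neutrophil sum (18.22 TPM), while its Ptprc (15.98 TPM) was within the range of the others. The part of these markers in its Il1b was not tested.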
